A study of Homo sapiens with 2 samples.

Results

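PTHLH encodes parathyroid hormone-like hormone, and the chromatin contacts that its promoter makes beyond the neighbouring super-enhancers (SEs) were examined together with those of CCDC91, KLHL42 and MRPS35, genes on either side of it on chromosome 12. The data were H3K27ac HiChIP of KYSE180, an established line of esophageal squamous cell carcinoma (ESCC), which had received a non-targeting siRNA. The 2 libraries, labelled as replicates 1 and 2, belong to 1 condition and were deposited as 1 list of loops, so no value has a replicate spread, no test across samples was possible, and library depths are unknown. The study's methods describe the list as active loops associated with p63, a transcription factor of squamous cells, so it is not a full set of H3K27ac contacts. Nothing in the labels says that the replicates came from separate cultures. Members were the loops with at least 1 bin (anchor) of 2 kb starting between 27800000 and 28800000 on chromosome 12 (hg19), which gave 101 of the 31950 loops of the list. These loops carried 107 contacts, a contact being a ligated read pair that joins the bins of a loop. In the list as a whole, the coverage of the first bins, that is of the bin at the lower position of each loop, summed to 368661.

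PTHLH is a secreted peptide that signals through the receptor it shares with parathyroid hormone. It is made by squamous epithelia and is known as a cause of high blood calcium in patients with squamous tumors. CCDC91 is a protein of the trans-Golgi network that takes part in sorting vesicles, KLHL42 is an adaptor of a cullin-based ubiquitin ligase, and MRPS35 is a protein of the small subunit of the mitochondrial ribosome. H3K27ac marks active promoters and enhancers, and HiChIP reports contacts in which such marked chromatin takes part. SEs are long stretches of dense enhancers, and loops are the means by which they are thought to reach the promoters that they serve.

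The promoters of the genes are shown because the loops described here start from or end near them. RefSeq promoter windows, from 250 bases before to 50 bases after a transcription start, were at hand for 3 of the 4 genes, on GRCh38.p14. They are chr12:27969927-27970226 (minus strand) for PTHLH, chr12:27779983-27780282 (plus strand) for KLHL42 and chr12:27710582-27710881 (plus strand) for MRPS35. The sequences run 5′ to 3′ on the strand of the gene, and capitals mark motifs that were searched on both strands. These were the GC box GGGCGG, the TATA box TATAAA, the AP-1-like pattern TGANTCA and a single decamer of the p53 family, which includes p63. In TGANTCA, N stands for any base. Binding of p63 to a single decamer was not tested.
PTHLH: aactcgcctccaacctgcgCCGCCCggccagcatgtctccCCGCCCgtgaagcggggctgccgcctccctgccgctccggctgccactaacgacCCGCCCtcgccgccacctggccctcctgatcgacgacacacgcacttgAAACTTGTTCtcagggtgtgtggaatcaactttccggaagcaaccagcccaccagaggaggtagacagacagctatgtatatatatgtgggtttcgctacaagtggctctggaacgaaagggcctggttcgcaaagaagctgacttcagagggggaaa
KLHL42: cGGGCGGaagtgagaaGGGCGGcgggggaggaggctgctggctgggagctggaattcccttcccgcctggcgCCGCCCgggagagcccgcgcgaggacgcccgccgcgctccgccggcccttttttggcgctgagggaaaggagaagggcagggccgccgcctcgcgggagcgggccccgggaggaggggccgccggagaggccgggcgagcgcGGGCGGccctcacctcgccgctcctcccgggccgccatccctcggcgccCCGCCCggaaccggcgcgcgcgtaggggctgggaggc
MRPS35: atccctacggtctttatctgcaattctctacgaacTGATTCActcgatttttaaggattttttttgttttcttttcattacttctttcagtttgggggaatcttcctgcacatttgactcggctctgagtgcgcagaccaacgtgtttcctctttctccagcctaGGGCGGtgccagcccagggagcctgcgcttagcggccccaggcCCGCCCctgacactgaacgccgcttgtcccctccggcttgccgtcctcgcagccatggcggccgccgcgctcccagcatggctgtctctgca
The PTHLH window held 3 GC boxes and 1 p53-family decamer, which do not overlap. The KLHL42 window held 5 GC boxes, and the MRPS35 window held 2 GC boxes and 1 AP-1 site. TATAAA had 0 matches in these windows. Of 35116 promoter windows of the same length, 45.0% held GGGCGG, 6.63% the decamer, 7.71% TGANTCA and 11.5% TATAAA. The G and C content was 60.3% for PTHLH, 79.7% for KLHL42 and 56.0% for MRPS35, and 54.9% of all windows had as little as PTHLH or less, against 97.4% for KLHL42. The RefSeq start of PTHLH lies inside the gene, 11.9 kb above its lower end in GRCh38, whereas the 5′ end used for the loops lies 13.9 kb above the lower end, so these starts are 2.0 kb apart. At its distance from the lower end, the RefSeq start would fall in the bin from 28122001 to 28124000.

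PTHLH is on the minus strand at 28111017 to 28124916, so upstream sequence lies at higher positions. The interval that holds its SEs was taken as 28128000 to 28188000, from 3.08 to 63.1 kb upstream of the 5′ end, and is called the SE interval below. The SE calls themselves are not part of the files used here. Bins less than 1 kb from the 5′ end were taken as the promoter, which covered 28122001 to 28126000 and had 20 loops with 23 contacts. Of these, 9 loops with 11 contacts ended in the SE interval. The other 11 loops, with 12 contacts, ended outside it, which is 55.0% of the promoter loops (95% Wilson interval 34.2 to 74.2%). The count of 11 loops has an exact 95% Poisson interval of 5.49 to 19.7. All intervals given here treat read pairs as independent, which was not tested. They cover counting error only, since the single list has no replicate spread. The outside loops spanned 66 to 516 kb with a median of 202 kb, against 12 to 64 kb for the loops into the SE interval. All 20 loops of the gene belonged to the promoter bins, since the rest of the gene body held 0 bins with a loop.

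The partners outside the SE interval lay mostly upstream, in and before CCDC91. Of the 11 loops, 7 with 8 contacts ended on the CCDC91 side, that is at or beyond the anchor stretch where CCDC91 starts (about 28286000), and 2 ended in the gap between the SE interval and CCDC91. The other 2 ended below PTHLH, beyond the bins at the spacing of KLHL42 and MRPS35 in GRCh38. The loop from the 5′ end bin to 28310001 to 28312000, 186 kb upstream and inside CCDC91, had 2 contacts (exact Poisson interval 0.242 to 7.22). The other 10 had 1 contact each (0.0253 to 5.57), and as these intervals overlap, the 11 loops could not be ranked by contacts.

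**Figure D1:**
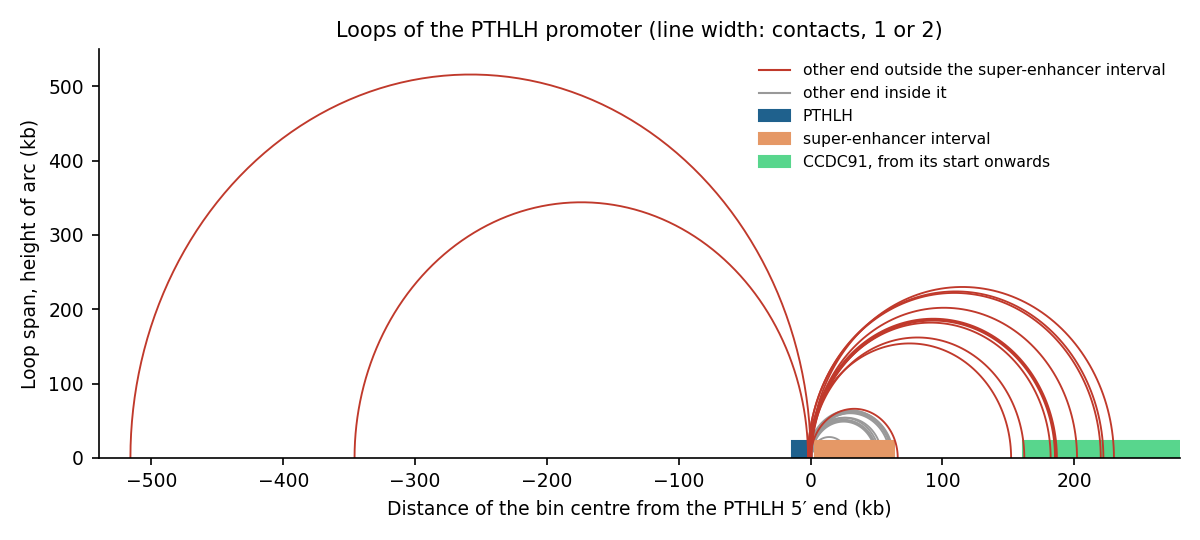
Loops of the PTHLH promoter, drawn as arcs between bin centres against the distance from the PTHLH 5′ end in kb, with the span in kb as the height and the number of contacts (1 or 2) as the line width. The 11 loops in red end outside the SE interval and the 9 in grey end inside it; 9 of the red arcs run upstream, towards CCDC91, and 2 run to lower positions.

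Outside the SE interval, the bins of the promoter shared 0 partner bins, whereas inside it both reached 28186001 to 28188000, over 64 kb with 1 contact and over 62 kb with 2. The bin with the 5′ end (28124001 to 28126000) had 14 loops with 17 contacts. Outside the SE interval it reached the bins starting at 28190001, 28286001, 28306001, 28310001, 28326001 and 28354001, with spans of 66, 162, 182, 186, 202 and 230 kb. Downstream it reached 27608001, 516 kb away. The bin below it (28122001 to 28124000), which lies within the gene, had 6 loops with 6 contacts and reached 28276001, 28344001 and 28346001, with spans of 154, 222 and 224 kb, and 27778001, 344 kb away in the other direction. The bin at 28346001 and the bin at 28306001 had no other loop, whereas 28190001 and 28344001 had 5 loops each, 28354001 and 28286001 had 4 each, 28326001 and 28276001 had 3 each, and 28310001 had 2.

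The next bin upstream (28126001 to 28128000) adjoins the promoter without holding sequence within 1 kb of the 5′ end. It had 7 loops with 7 contacts, of which 4 ended outside the SE interval, at 28208001, 28210001 and 28326001 upstream and at 25886001 downstream. The bin at 28326001 was thus the partner of the 5′ end bin and of its neighbour, with spans of 202 and 200 kb. With this bin added to the promoter, 15 of 27 loops ended outside the SE interval.

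The number of loops at PTHLH was high within the list. The paper shows PTHLH among its examples of SE loops from the same HiChIP data, so the gene was not chosen independently of its loops. When bins were taken in adjacent pairs, 57529 pairs held a loop, and 0.153% of these pairs reached the 20 loops of the promoter. Counting only loops that span 100 kb or more, which leaves out the SE interval, the promoter had 10, and 0.327% of the pairs reached this number. The coverage of the 5′ end bin was 82, and 0.832% of the 21636 first bins had as much. The listed contacts of the promoter bins as first bins made up 21 of 117 counts of coverage, or 17.9% (Wilson interval 12 to 25.9%). Over the whole list the share was 9.14% (9.05 to 9.24%). The share of the promoter covers only loops to higher positions, and 11 of its contacts ended in the SE interval. With bins within 5 kb it was 12.6% (9.37 to 16.7%). Over all first bins of the window it was 10.1% (8.28 to 12.3%), which overlaps that of the list. The adjoining bin, with a coverage of 74, had 8.11% (3.77 to 16.6%). Bins with more coverage had more chances to yield a loop, and the part of coverage in the number of loops was not tested. Among the promoter loops, 3 of 20 had 2 or more contacts, or 15.0% (5.24 to 36.0%), against 3.36% in the list. Of these, 2 ended in the SE interval and 1 outside it.

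The SE interval had distal partners of its own, and with the borders set here few of them were those of the promoter. It held 17 bins with a loop, and 14 of them sent 31 loops with 32 contacts to places other than the promoter, the adjoining bin and the interval itself. Of these loops, 13 ended on the CCDC91 side, 7 in the gap before CCDC91, 10 below PTHLH and 1 above the window. When touching anchors were merged into stretches, the promoter was joined to 10 stretches outside the SE interval and the interval to 17, of which 3 were shared. This is 30.0% of the promoter's partners and 17.6% of those of the interval. At the level of single bins, 2 were shared, or 18.2% of 11 and 8.7% of 23. The shared stretches all lay on the CCDC91 side. The stretch at 28284001 to 28290000 had 1 loop to the promoter and 4 to the interval, that at 28310001 to 28312000 had 1 to each, and that at 28342001 to 28348000 had 2 to the promoter and 3 to the interval. The stretch at 28296001 to 28300000 had 4 loops to the interval and 0 to the promoter, and those at 28206001 to 28214000 and 28216001 to 28222000 had 3 and 4 to the interval and 0 to the promoter. That at 28206001 to 28214000 also had 2 loops to the adjoining bin, which was counted on neither side. The promoter, the adjoining bin and the first bins of the interval touch, as 1 stretch from 28122001 to 28132000. The shares therefore hold only for the border drawn within it. A loop missing from the list is not shown to be absent, since most listed loops rest on 1 contact and pairs that were not called are left out.

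CCDC91 lies upstream of PTHLH and its SEs, on the plus strand, so that these genes point away from each other. The bins within 1 kb of its start as placed at about 28286000 (28284001 to 28288000) had 13 loops with 15 contacts. Of these, 4 loops with 5 contacts ended in the SE interval of PTHLH, 4 in the gap before CCDC91, 2 further into CCDC91 and 2 below the window. One loop, with 1 contact and a span of 162 kb, ended at the PTHLH promoter. The bin at 28284001 had 9 loops with 11 contacts, a number that 0.911% of all bins reached, and it was joined to the interval bin at 28128001 by 2 contacts over 156 kb and to 28344001, inside CCDC91, by 2 contacts over 60 kb. Its neighbour at 28286001 had 4 loops, and it was this bin that the PTHLH promoter reached. The start is known only as about 28286000, the border of these bins, so it could not be assigned to either of them.

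CCDC91 has many annotated starts. In GRCh38 (GENCODE 44), the 5′ ends of its 22 transcripts fell into 11 groups, and the distances between them were set beside the distances between bins of the list. Groups at the start, 12.8 kb and 57.2 kb further on, of 1, 2 and 6 transcripts, fell on bins with 13, 4 and 7 loops. Of these loops, 4, 3 and 3 ended in the SE interval and 1, 0 and 1 at the PTHLH promoter. A group of 4 transcripts 415.8 kb from the start fell on 1 loop, to the SE interval over 568 kb, and the other 7 groups fell on bins without a loop. By this spacing, the group with most transcripts lay at the stretch from 28342001 to 28348000. The PTHLH promoter reached this stretch from the bin below its 5′ end. Only the first CCDC91 start was checked against its approximate hg19 position, and use of the starts in KYSE180 was not tested.

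KLHL42 and MRPS35 lie below PTHLH, in the order MRPS35, MANSC4, KLHL42 and PTHLH. Their hg19 positions were not among the sources used here, so only their spacing in GRCh38 was set beside that of the bins, and no position was converted. The spacing could be checked at PTHLH itself, where 1 GENCODE transcript starts exactly 13899 bases above the lower end of the gene, as in hg19. It could also be checked at CCDC91, whose start lies 175.2 kb above that end in GRCh38 against about 175.0 kb in hg19. Neither point lies below PTHLH, so the spacing to the genes on that side was not checked. A bin at the spacing of a gene is called its bin in what follows, with this limit.

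The 5′ end of KLHL42 lies 191.9 kb from that of PTHLH, and the bins at this spacing (27930001 to 27934000) had 1 loop with 1 contact. It ended at 27906001 to 27908000, 26 kb lower and near the end of MRPS35. MANSC4, which starts on the other strand next to KLHL42, shares this loop. The 5′ end of MRPS35 lies 261.2 kb from that of PTHLH, and the bins at this spacing (27862001 to 27866000) had 2 loops with 1 contact each, over 186 kb to 27676001 and over 258 kb to 27606001. Neither gene had a loop to the PTHLH promoter or to the SE interval, nor did a width of 5 kb around their 5′ ends add a loop. With 1 and 2 contacts at these genes, the limit on a share of contacts with PTHLH is 100%, that is, none was set. The loops of the PTHLH promoter to 27608001 and 27778001, with 1 contact each, ended beyond the bins at the spacing of both genes. These ends lie at the spacing of SMCO2 and of the gene body of PPFIBP1.

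PPFIBP1, which encodes a protein of the liprin family, is the next large gene below MRPS35. The bins at the spacing of its 5′ end (27674001 to 27678000) had 13 loops with 15 contacts. Among them, 1 loop ended in the SE interval over 474 kb, 1 at the CCDC91 start over 610 kb, 1 in the next bin of CCDC91 (28288001 to 28290000) over 612 kb, and 1 at the MRPS35 bin. None ended at the PTHLH promoter, and 0 of 15 contacts allow a share of up to 20%. REP15, which lies between PPFIBP1 and MRPS35, had 0 loops at its spacing.

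Most loop ends of the window lay at PTHLH or upstream of it, and few lay below the gene. The window reaches further above PTHLH than below it, and the bins at the spacing of the PPFIBP1 5′ end lie outside it. Below PTHLH, the window held 7 bins with a loop and 9 loop ends in all, and no bin between 27934001 and 28060000. The promoter held 2 bins with 20 loop ends, the SE interval 17 bins with 71, the gap before CCDC91 11 bins with 27, and the CCDC91 side 16 bins with 45. In all, 20 loops ran from below PTHLH to the gene or beyond it. Of these, 10 ended in the SE interval, 4 on the CCDC91 side, 3 in the gap, 2 at the promoter and 1 in the adjoining bin, and 0 of them had 2 or more contacts. The bins nearest to PTHLH on the lower side, at 28060001 and 28092001, had 2 loops and 1 loop. They ended in the first bin of the SE interval, 28128001, over 68 and 36 kb, and in the gap, at 28276001, over 216 kb.

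**Figure D2:**
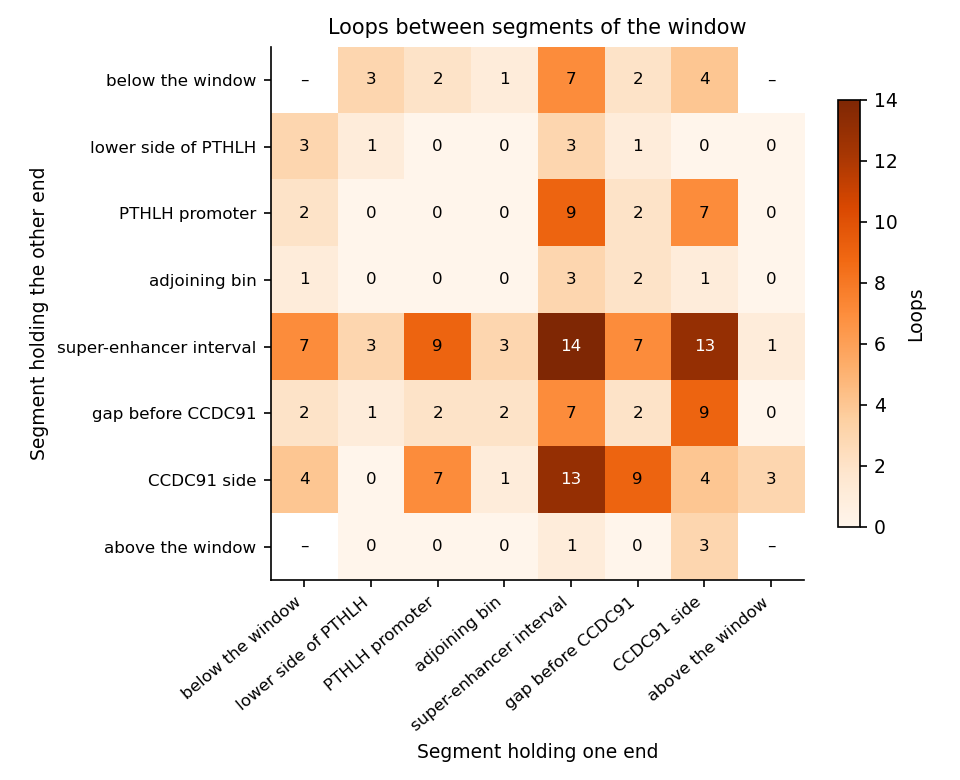
Loops of the window by the segments that hold their ends, with the number of loops in each cell; pairs of segments that both lie outside the window are left out (dash). The SE interval and the CCDC91 side share 13 loops and the PTHLH promoter and the CCDC91 side 7, while the promoter has 0 loops to the lower side of PTHLH within the window.

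Loops of 1 Mb or more were a small part of the loops of the window. The window had 7, each with 1 contact, or 6.93% of its loops (Wilson interval 3.4 to 13.6%). The share in the list was 11.7%, which lies inside this interval. None of the 7 had an end in the promoter bins, where 0 of 23 contacts allow a share of up to 13.0%. This limit lies above the 11.7% of loops in the list, so the promoter was not separable from the list. The nearest of the 7 was that of the adjoining bin to 25886001, 2.24 Mb below, from a first bin with a coverage of 6 and 1 loop. It counts as a promoter loop when the bins within 5 kb are taken. A loop of 3.73 Mb joined the SE interval at 28152001 to 31882001, which had no other loop. CCDC91 was joined over 1.2 Mb from 28286001, among the bins within 1 kb of its approximate start, to 27090001. From further inside, the bin at 28354001, which the PTHLH promoter also reached, was joined to 32832001 over 4.48 Mb, and the bins at 28466001 and 28618001 were joined to 29534001 over 1.07 Mb and to 31648001 over 3.03 Mb. The last of the 7 joined 25430001 to 28210001, in the gap before CCDC91, over 2.78 Mb. Genes at the far ends were not placed.

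Over the window, 54 bins in 28 stretches had a loop, and 29.6% of these bins had 1 loop, against 59.2% of bins in the list. The most connected bins had 14 loops each, a number that 0.158% of all bins reached, and they were the 5′ end bin of PTHLH and the first bin of the SE interval at 28128001. The latter had a coverage of 127, the highest of a first bin in the window. The next were 28284001 at CCDC91 with 9 loops and 28186001 at the upper end of the SE interval with 8. Beyond 28386000 the window held 3 bins, with 4 loops between them.

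**Figure D3:**
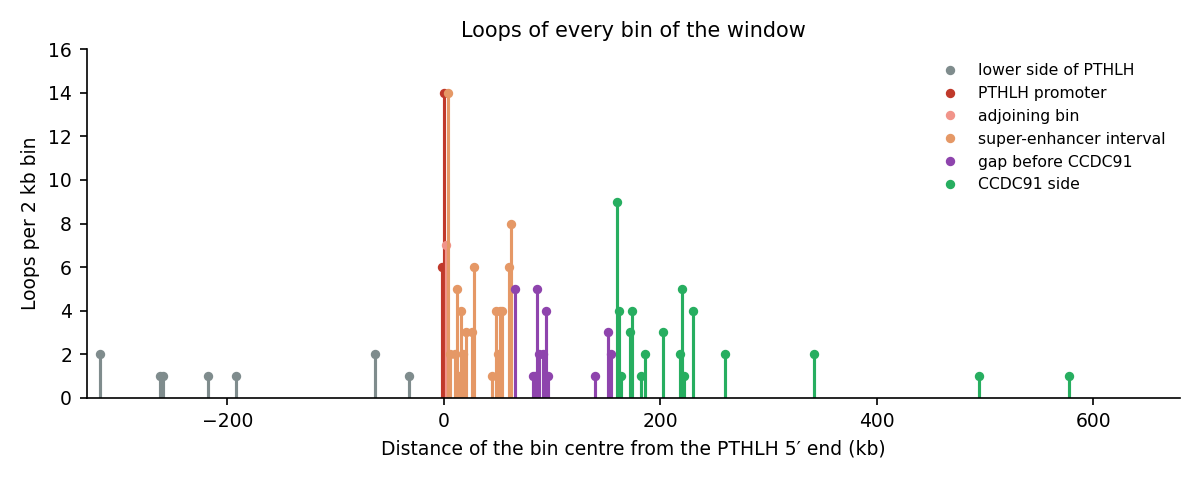
Number of loops of each 2 kb bin of the window that has a loop, against the distance of its centre from the PTHLH 5′ end in kb, with the segment of the bin as colour. The PTHLH 5′ end bin and the first bin of the SE interval have 14 loops each, and the 7 bins below PTHLH have at most 2. The bin that ends at the approximate CCDC91 start (28284001 to 28286000) has 9.

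The median span in the window was 98 kb, with quartiles at 42 and 224 kb, against 120 kb in the list, with quartiles at 36 and 398 kb. Loops of 50 to 200 kb made up 38.6% (Wilson interval 29.7 to 48.4%) against 29.7% (29.2 to 30.2%), and the intervals overlap. In the other classes of up to 1 Mb the intervals overlapped as well. Loops with 2 or more contacts numbered 6, or 5.94% (2.75 to 12.4%), which is not separable from 3.36% in the list. Of these, 5 spanned 50 to 200 kb. The PTHLH 5′ end bin had 3 of them, to 28174001, 28186001 and 28310001, and the others joined 28128001 to 28284001 and 28284001 to 28344001.

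**Figure D4:**
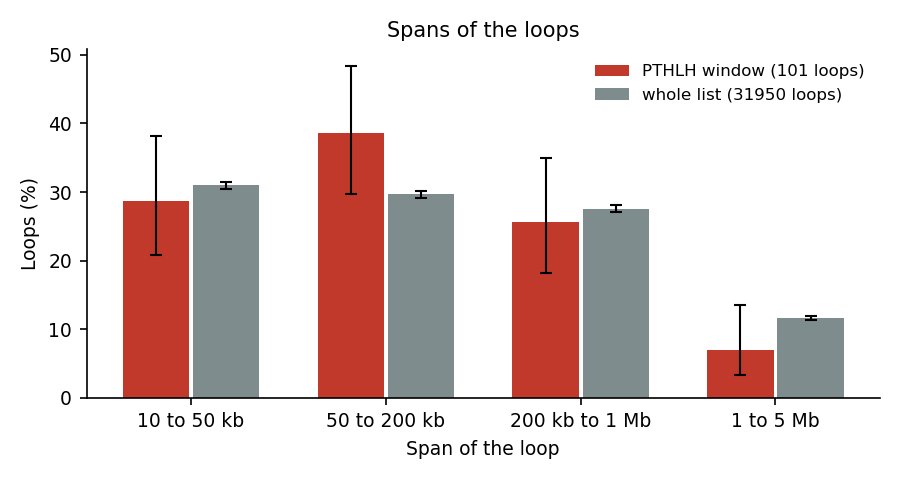
Share of loops (%) in 4 classes of span for the 101 loops of the window and the 31950 of the list, with 95% Wilson intervals as error bars. Loops of 1 Mb or more make up 6.93% in the window and 11.7% in the list, and the error bars overlap in each class.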

How the data were processed

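The authors processed H3K27ac HiChIP reads of 2 libraries with HiC-Pro (hg19 per the labels), called loops that they describe as active and p63-associated with FitHiChIP in Peak-To-All mode, and removed loops lacking H3K27ac at either end. Versions and thresholds are not given in the sources used here. They deposited 1 list for both libraries, with 2 columns of counts per loop and no normalization, score or q-value, and with no name for the columns. They were read as contacts and as coverage of the first bin, since coverage had 1 value in each of the 21636 first bins and contacts exceeded it in 0. How p63 entered the calling is not given in the sources used here. The list leaves out pairs that were not called, so it is not a full set of H3K27ac contacts, and its sum of coverage is not the depth of the libraries.

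Loops were counted by the bin that holds an end. Shares have 95% Wilson and counts exact 95% Poisson intervals. A count of 0 was given a fixed upper limit of 3, which is not the limit of the exact interval. Counting was tested on a simulated list with planted loops. The genes named were PTHLH, CCDC91, KLHL42 and MRPS35, with a fixed list of neighbours on chromosome 12 as landmarks. The members and lists were chosen with earlier results of these data known. The plan placed KLHL42 and MRPS35 only from positions on the build of the list. Their placement by spacing in GRCh38 (GENCODE 44) was added later, and promoter sequences are from RefSeq. Alternatives were other promoter widths, spans, contact minimums and intervals. Intervals were computed with statsmodels 0.14.6 and scipy 1.17.1, tables with pandas 2.3.3 and numpy 2.4.6 and plots with matplotlib 3.10.9, under Python 3.11.15.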

Additional observations from a re-analysis of the deposited data

How the results depend on the processing

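Of 20 recomputed values of 8 results, 12 stayed within 1.5 times the value reported, or within its interval for a share, and 8 moved. The PTHLH promoter loops outside the SE interval numbered 7 with the 5′ end bin alone and 22 with the bins within 5 kb, which by construction hold fewer and more bins, and the wider window includes the first bin of the SE interval. With loops of 2 or more contacts the counts were 1 at PTHLH, 2 at the CCDC91 start and 6 in the window, by construction, since most loops rest on 1 contact. With all CCDC91 starts placed by spacing, an alternative chosen after seeing the data like the one with the adjoining bin, CCDC91 had 24 loops in place of 13. At 500 kb or more the window had 16 loops in place of the 7 of 1 Mb or more, and after merging of touching bins the most connected stretch had 43 loops in place of the 14 of a bin. The 5′ ends of all transcripts of KLHL42 and MRPS35 were not run, because their positions on the build of the list were not at hand. No paired analysis was possible because the single list pools the libraries of 1 condition, which also meant that leaving out a replicate could not be done.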
